A study of Mus musculus with 240 samples.

Results

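Rec8 (ENSMUSG00000002324) was examined as a single gene, 1 of 55414 genes in the deposited count table and 1 of the 14785 genes with deposited log2 values. It was chosen by its measured differences among strains and brain regions in these same libraries, so its levels by strain and region are given as a description, with no test. Brain tissue of 48 naive mice from the 8 founder strains of the Collaborative Cross, a mouse mapping population, was punched from the prelimbic cortex (PrL), the accumbens core (NAcc) and the central amygdala (CeA), and poly(A) RNA was sequenced. Each strain gave 3 females and 3 males, all killed at an age of 8 weeks per the series' design text (the study's methods give an older adult age), with no ethanol or other agent given. One B6 NAcc library was left out by the authors, which leaves 143 libraries with totals of 14942820 to 33951616 counts. The strains were C57BL/6J (B6), PWK/PhJ (PWK), WSB/EiJ (WSB), A/J (AJ), CAST/EiJ (CAST), NOD/LtJ in the labels (NOD/ShiLtJ in the study, NOD here), NZO/HILtJ (NZO) and 129S1/SvImJ (S129). They are inbred, so mice of 1 strain share a genome and 6 mice measure the spread within that genome. B6 and PWK are the strains the study treats as having high ethanol preference, and the other 6 as having low preference.

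Rec8 encodes the meiotic kleisin of cohesin, the subunit that closes the ring formed by the SMC proteins around sister chromatids. In germ cells it takes the place of Rad21, the kleisin of dividing and resting somatic cells, and its cleavage by separase lets homologous chromosomes part. It is best known from the testis and ovary, not from brain tissue. In a bulk sample of brain, fewer cells that carry a transcript and less of it in each cell cannot be told apart.

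The gene lies on the plus strand of chromosome 14, at 55618037 to 55625395 in GENCODE M21 (GRCm38). The counts were made on GRCm39, so these positions are not those of the counted gene model. The sequence just upstream is shown because it precedes the start of the transcript whose abundance differs among the strains. It is the 121 bases before the GENCODE start, chr14:55617916-55618036 on the plus strand of GRCm38.p6 (RefSeq), written 5′ to 3′ with the matches to a CCAAT box in capitals.
Rec8 upstream: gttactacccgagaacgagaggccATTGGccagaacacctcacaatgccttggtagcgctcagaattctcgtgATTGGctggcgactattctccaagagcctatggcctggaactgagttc
RefSeq places the gene start 129 bases further downstream. The letters CCAAT were matched 2 times, both on the minus strand as ATTGG, at positions 25 and 74 counted from the first base shown, and 16.3% of 32851 upstream windows of the same length hold a match on either strand. TCCCGC and CACGTG, searched on both strands, had 0 matches here, against 7.00% and 2.22% of all windows. The window holds 5 CpG dinucleotides, against a median of 2 over all windows. This is the reference sequence of B6, and the sequences of the other strains were not analysed here.

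Rec8 was well above the counting floor in B6 and PWK, low in WSB and close to that floor in the other 5. Levels are given as CPM, the counts of a gene per 1000000 counts of its library after TMM scaling (trimmed mean of M-values) over the 14785 genes. In the CeA of B6, the 6 libraries held 144 to 413 Rec8 counts (median 189), or 7.06 to 14.8 CPM. The CeA of PWK held 100 to 279 counts (median 172), or 4.18 to 11.4 CPM. The ranges of the 2 strains overlapped, and every one of these 12 libraries lay above every library of the other strains in that region. In the NAcc, the 5 B6 libraries held 156 to 424 counts (median 179) and the 6 PWK libraries 127 to 353 (median 225.5). In the PrL, B6 held 57 to 200 counts (median 111.5) and PWK 26 to 74 (median 43.5). The B6 and PWK ranges overlapped in all 3 regions on the CPM scale, and neither overlapped any other strain within a region.

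WSB came next in each region. Its libraries held 4 to 31 Rec8 counts in the CeA (median 17.5), 8 to 71 in the NAcc (median 26.5) and 1 to 7 in the PrL (median 4.5). On the CPM scale the WSB range overlapped that of the next strain in every region, NZO in the CeA and PrL and AJ in the NAcc. In AJ, CAST, NOD, NZO and S129, 90 libraries held 0 to 13 counts (median 1). Rec8 had 0 counts in 20 of them, which allows up to 3 counts in each, and at most 3 counts in 66. Summed over these 90 libraries, 225 counts gave 0.117 CPM (95% exact Poisson interval 0.102 to 0.133). This interval, like those below, treats reads as independent counts and leaves out the spread between mice. Reads without molecular identifiers are not independent molecules, so it may be too narrow even for counting error. Neighbours in the order of these 5 strains overlapped in every region, so their order is not resolved.

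Mean Rec8 levels were 9.83 ± 2.68 CPM (SD, n = 6) in the CeA of B6, 10.6 ± 3.80 (n = 5) in the NAcc and 5.34 ± 2.34 (n = 6) in the PrL. In PWK they were 8.06 ± 2.32, 10.4 ± 3.72 and 2.59 ± 1.16 CPM (SD, n = 6 each). In WSB they were 0.789 ± 0.527, 1.54 ± 0.949 and 0.201 ± 0.118 CPM (SD, n = 6 each). Against the pooled CPM of the 5 strains near the floor, B6 was 77.4-fold higher in the CeA (95% counting interval 62.4 to 97.1), 62.6-fold in the NAcc (51.6 to 76.5) and 145-fold in the PrL (94.4 to 237). The PWK ratios were 62.0, 59.8 and 70.3, and the WSB ratios 6.07, 9.06 and 5.63, in the same order of regions. In the limma-voom fit, B6 exceeded the mean of the other 7 strains by a log2 difference of 5.20 (SE 0.334) in the CeA, 4.75 (SE 0.343) in the NAcc and 5.50 (SE 0.334) in the PrL.

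**Figure D1:**
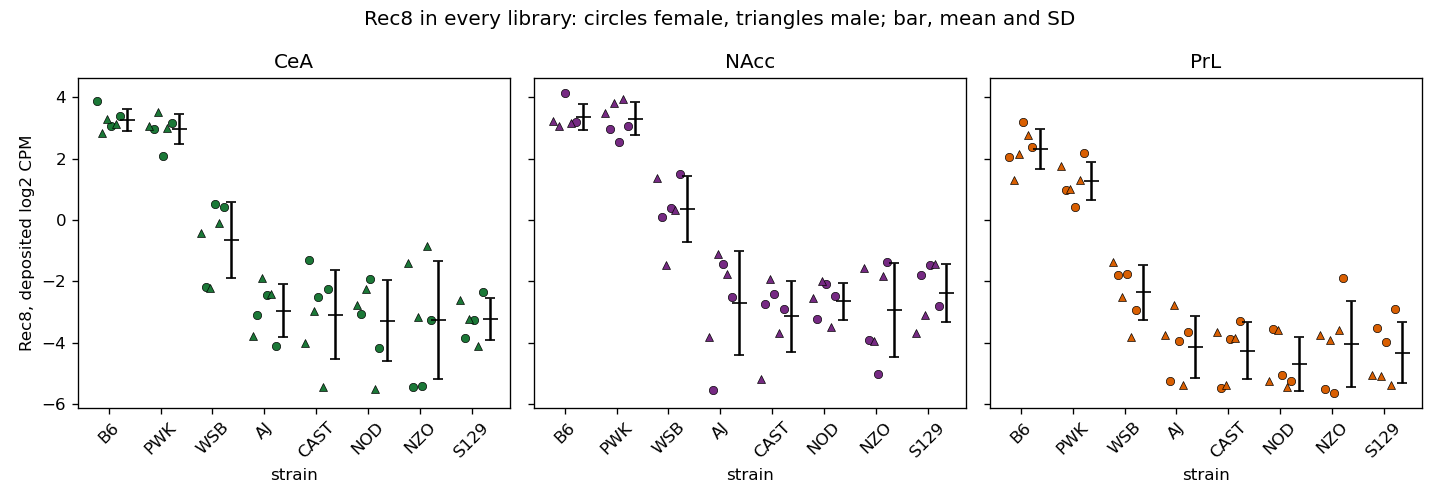
Deposited log2 CPM of Rec8 (vertical axis) in each of the 143 libraries, by strain (horizontal axis) with 1 panel per region. Circles are females, triangles males, and the bars the mean and SD of a strain. B6 and PWK stand above all other libraries of their region, WSB lies between, and the other 5 strains spread over values set by 0 to 13 counts.

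Rec8 entered the deposited log2 table through B6 and PWK. Its mean raw CPM was 7.38 in B6, 6.26 in PWK and 0.211 over the 6 low preference strains, which gave 1.82 over all libraries, where the authors kept genes with a mean of at least 1. The libraries were sequenced together in 3 sets, the trays. In all 9 combinations of tray and region, every B6 and PWK library was above every library of the other 6 strains. This follows from the separation within each region and adds no evidence of its own. Trays 2 and 3 were sequenced again, and in the 24 B6 and PWK libraries with 2 runs the median absolute log2 ratio of Rec8 between runs was 0.178, with a largest value of 0.731. In the 60 libraries of the 5 strains near the floor that had 2 runs, no run held more than 14 Rec8 counts. Reads of all strains were aligned to the genome of B6, and the part of sequence differences in the Rec8 counts of the other strains was not tested.

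The region labels were checked on marker genes. The summed CPM of 8 striatal neuron markers had a median of 4108 in the NAcc and 195 in the PrL, and that of 5 pallial glutamatergic neuron markers a median of 15.3 in the NAcc and 2670 in the PrL. The striatal ranges of the regions overlapped, with a lowest sum of 693 in the NAcc and a highest of 1961 in the PrL. Both were PWK libraries. In PWK mice 24 and 40, which had the 2 highest Rec8 levels of the PWK NAcc (13.9 and 15.3 CPM), the striatal markers summed to 693 and 876 CPM there, against 3947 to 4506 in the other 4. The PrL library of mouse 40 had the striatal sum of 1961 CPM, and the NAcc library of mouse 48 a pallial sum of 1386 CPM. Without these 3 mice, the PWK log2 difference of NAcc and PrL was 1.90 ± 0.19 (SD, n = 3) and that of NAcc and CeA 0.30 ± 0.25, and the 3 remaining PWK NAcc libraries, at 5.82 to 11.1 CPM, were still above every library of the other 6 strains there. Among B6 mice, the NAcc library of mouse 25 had the lowest striatal sum (4454 CPM, others 6367 to 8020) and the highest Rec8 level (17.4 CPM). Its PrL library had the lowest pallial sum (1771 CPM), the highest striatal sum (652 CPM) and the highest Rec8 level of the B6 PrL (9.17 CPM). Mouse 33 came next in the PrL on all 3 measures (2236, 466 and 6.71 CPM), and mouse 9 had the highest pallial sum (3043 CPM) and the lowest Rec8 level (2.43 CPM). The part of these marker levels in the PWK and B6 values was not tested further. The 5 central amygdala markers summed to a median of 400 CPM in the CeA, against 275 in the NAcc and 260 in the PrL, with overlapping ranges. The other neuron markers varied widely within the CeA, where the striatal sum ran from 317 to 8579 CPM (median 1492) and the pallial sum from 20.1 to 2494 CPM (median 1184). The median pallial sum of the CeA was 546 CPM in B6, 964 in PWK, 1715 in WSB and 1308 in the 5 strains near the floor. In B6, the CeA library of mouse 1 had the lowest pallial sum (69.4 CPM, others 359 to 944) and the highest Rec8 level (14.8 CPM). In WSB, the CeA library of mouse 27 had the lowest pallial sum (573 CPM, others 1586 to 2012) and the highest Rec8 level (1.40 CPM), and the NAcc library of mouse 19 had the highest striatal sum (6310 CPM) and the lowest Rec8 level (0.341 CPM). Not every marker extreme met a Rec8 extreme. The CeA library of PWK mouse 48 had the lowest pallial sum of the PWK CeA (20.1 CPM, others 651 to 1608). Its Rec8 level was 8.94 CPM, the second highest of the PWK CeA after that of mouse 24 (11.4 CPM). The pallial sum of mouse 24 there (651 CPM) was the second lowest. With strain by region, sex and tray removed, r with Rec8 over the 35 B6 and PWK libraries was -0.11 (pallial) and -0.14 (striatal). Both r pool the 3 regions, so they cannot show whether a relation held within 1 region. In the same 35 libraries the summed astrocyte markers had r = 0.552, the largest of any marker list. These correlations are descriptions, and the part of these marker levels in the Rec8 values was not tested. None of these markers was at 0 in every library of a region. The 8 markers of dividing cells, in which mitotic cohesin is loaded and cleaved, summed to medians of 4.82 CPM in the CeA of B6, 4.52 in that of PWK and 4.87 in that of the 5 strains near the floor. Their ranges overlapped in every region, and their most abundant genes were Mki67 and Ccna2. Other lists differed more among strains. The summed oligodendrocyte markers had a median of 9066 CPM in the CeA of B6, 4062 in PWK and 3035 in the 5 strains, and the summed ependymal markers a median of 25.8 CPM in the PrL of PWK, 5.78 in B6 and 10.5 in the 5 strains. Their part in the Rec8 levels was not tested.

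Regions also differed within single mice. The log2 CPM of Rec8 (prior count 2) was higher in the NAcc than in the PrL in 5 of 5 B6 mice, 6 of 6 PWK mice and 6 of 6 WSB mice. The mean difference was 0.99 ± 0.55 in B6 (SD, n = 5), 1.99 ± 0.68 in PWK (n = 6) and 2.34 ± 1.10 in WSB (n = 6). The CeA was above the PrL in 5 of 6 B6, 6 of 6 PWK and 5 of 6 WSB mice, with means of 0.94 ± 0.72, 1.65 ± 0.52 and 1.41 ± 1.35. The difference of NAcc and CeA was smaller than its SD in B6 (0.21 ± 0.54, higher in 3 of 5 mice) and PWK (0.34 ± 0.37, higher in 5 of 6), and was 0.93 ± 0.80 in WSB (higher in 5 of 6). Without B6 mice 25 and 33, whose PrL libraries had the lowest pallial markers, the B6 difference of NAcc and PrL was 1.20 ± 0.61 (SD, n = 3), that of CeA and PrL 1.36 ± 0.37 (n = 4) and that of NAcc and CeA -0.01 ± 0.35 (n = 3). Without B6 mouse 1, the B6 difference of CeA and PrL was 0.77 ± 0.65 (SD, n = 5). Without WSB mouse 27 the WSB differences were 2.43 ± 1.21 for NAcc and PrL, 1.28 ± 1.47 for CeA and PrL and 1.15 ± 0.69 for NAcc and CeA (SD, n = 5), and without WSB mouse 19 they were 2.64 ± 0.92, 1.64 ± 1.36 and 1.00 ± 0.88, so each kept its direction. On the CPM scale, mean Rec8 in the NAcc was 1.99 times that of the PrL in B6, 4.00 times in PWK and 7.69 times in WSB, where the PrL libraries held 7 counts or fewer. In the other 5 strains, all 30 PrL libraries had 3 counts or fewer, so the differences within single mice rest on few counts. Pooled over their 30 libraries of each region, Rec8 was at 0.130 CPM in the CeA (95% counting interval 0.105 to 0.161), at 0.175 in the NAcc (0.144 to 0.210) and at 0.0359 in the PrL (0.0222 to 0.0548), and no test was made between the regions. The NAcc was above the PrL in 25 of these 30 mice, with both at 0 in 2, and the CeA was above the PrL in 21 of 30.

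**Figure D2:**
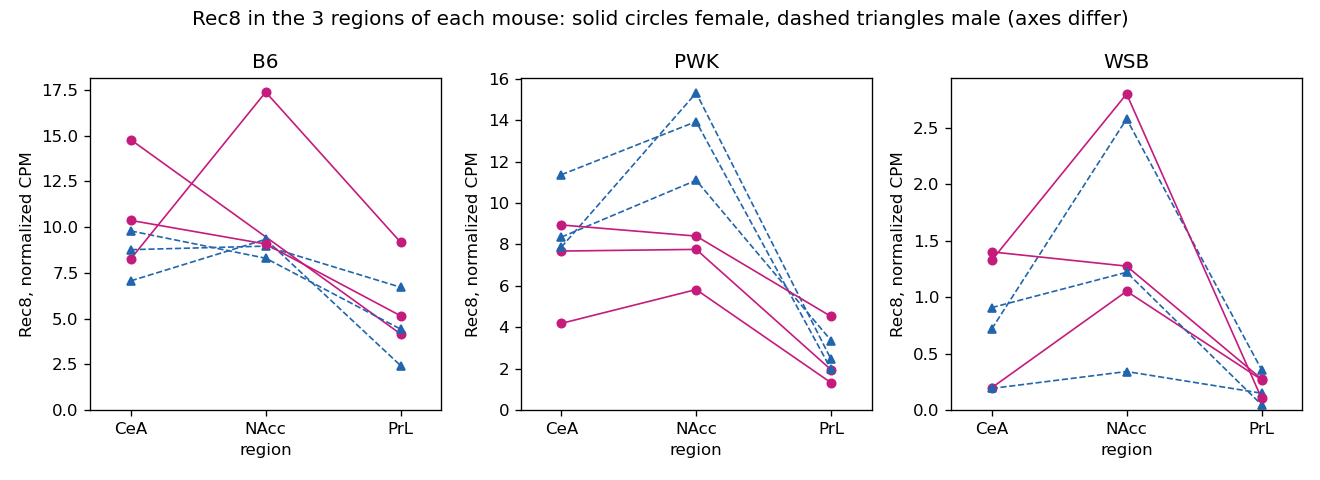
Normalized CPM of Rec8 (vertical axis, a different scale in each panel) in the CeA, NAcc and PrL of every B6, PWK and WSB mouse, with 1 line per mouse. Solid lines with circles are females and dashed lines with triangles males, and the line of the B6 mouse with no NAcc library joins its CeA and PrL. Every mouse with both regions has a lower value in the PrL than in the NAcc.

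Sex was not used to choose Rec8 and could be tested. Rec8 did not differ by sex past a false discovery rate (FDR) of 0.05 in any region (limma-voom moderated test, Benjamini-Hochberg over 14785 genes). The male minus female log2 difference was -0.00 (SE 0.210, adjusted p = 0.999) in the CeA, 0.19 (SE 0.208, adjusted p = 0.923) in the NAcc and -0.55 (SE 0.221, raw p = 0.0171, adjusted p = 0.488) in the PrL. Without the tray term the PrL difference was -0.28 (raw p = 0.168, limma-voom). Without B6 mouse 25 the NAcc difference was 0.44 (raw p = 0.0335, adjusted p = 0.881, limma-voom). Over all regions the sex difference was 0.03 (SE 0.113, adjusted p = 0.947), and the same fit with the mouse as a block gave 0.03 (SE 0.116, adjusted p = 0.952). Sex differences were called for 0.135% of genes in the CeA, 0.0812% in the NAcc, 0.0947% in the PrL and 0.46% over all regions. Each mouse was then given its mean deviation from the log2 levels of its strain in the 3 regions. Males minus females came to -0.43 in B6 and to 0.50 in PWK on that scale. Neither passed an exact two-sided permutation test over 3 and 3 mice (p = 0.2 and p = 0.4), which cannot go below 0.1. The PWK males 24 and 40 and the B6 female 25 are mice whose libraries stood apart in neuron markers. Without these 3 mice the differences were -0.30 in B6 and 0.51 in PWK. Mouse 8 (0.26 on that scale) was then the only PWK male, so the PWK value cannot show whether the sexes differ. PWK female 48 (0.30), whose NAcc library stood apart in pallial markers, was kept. The part of the marker levels in these differences was not tested.

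The other cohesin genes were counted beside the shares over all genes, with no test of their likeness to Rec8 as a group. Of 22 listed cohesin genes, 15 were in the log2 table, and the strain F test was passed by 9 (CeA), 11 (NAcc) and 13 (PrL) of them, beside 80.8%, 76% and 84.1% of all genes. When B6 was contrasted with the other 7 strains, 5 of 15 were higher and 0 lower in the CeA, 4 and 0 in the NAcc and 3 and 2 in the PrL. Over all genes 22.4% were higher and 18.7% lower in the CeA, 19.6% and 16.7% in the NAcc, and 19.2% and 19.5% in the PrL. The 0 lower genes came from limma-voom, with 8 of the 15 in the CeA and 5 in the NAcc at an unadjusted p under 0.05 in either direction, and edgeR called 6 and 4 in either direction. The median log2 difference of the 15 genes was 0.08, 0.05 and 0.05, beside 0.01, 0.01 and -0.00 over all genes. Against the averaged 6 low preference strains, in PWK 1 was higher and 2 lower in the CeA (all genes 20% and 19%), 2 and 4 in the NAcc (20.3% and 19.1%) and 4 and 4 in the PrL (24.4% and 23.6%). These counts and medians are descriptions, since 1 of the 15 genes passed the filter only through B6 (Pttg1) and 1 only through PWK (Rad21l).

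Rad21, the somatic kleisin, was called in no contrast of either kind in any region. Its level per kilobase of exon, averaged over regions, lay between 31.4 CPM per kb in B6 and 33.1 in AJ, whereas that of Rec8 lay between 0.0320 in NOD and 2.93 in B6. The Rad21 contrast of B6 with the other 7 gave log2 differences of 0.01 (SE 0.034), -0.05 (SE 0.047) and -0.07 (SE 0.030) in the CeA, NAcc and PrL. Rad21l, the other meiotic kleisin, passed the expression filter only through PWK, with a mean raw CPM of 1.04 over all libraries and 0.793 without PWK, so it had to differ and its values are given as a description. It was highest in PWK, at 55 to 80 counts in the NAcc, above the 9 to 22 counts of B6 and the 26 to 45 of CAST. It was higher in PWK than in the 6 low preference strains by a log2 difference of 1.98 (SE 0.246) in the CeA, 2.06 (SE 0.163) in the NAcc and 1.73 (SE 0.196) in the PrL. In B6 its log2 differences from the other 7 strains, PWK included, were -0.24, -0.07 and 0.22, and against the 6 low preference strains they were 0.04, 0.23 and 0.47.

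Of the subunits that pair with Rec8 in meiotic cohesin, Stag3 had a different order of strains, and Smc1b held too few counts for an order. Stag3, the meiotic STAG subunit, was below the expression filter and untested, and its NAcc counts were 9 to 17 in B6, 1 to 10 in PWK, 3 to 11 in WSB and 17 to 54 in NOD. Its mean per kilobase was low in PWK (0.0303 CPM per kb), CAST (0.0524) and WSB (0.0559). In the other strains it ran from 0.195 in B6 to 0.260 in NOD. PWK and B6, the 2 strains with the highest Rec8 levels, thus differed in Stag3. The NAcc counts of PWK and WSB overlapped, so which strain was lowest is not resolved. Smc1b, the meiotic SMC1 subunit, was also untested and held 2 to 4 counts in the NAcc of B6 and 0 to 2 in PWK. Smc3, the SMC subunit common to mitotic and meiotic cohesin, was higher in B6 than in the other 7 strains in all 3 regions, by 0.13 to 0.19 on the log2 scale (largest adjusted p = 0.0136). Pttg1 encodes securin, the inhibitor of separase, the protease that cleaves kleisins. It passed the filter only through B6, with a mean raw CPM of 3.07 over all libraries and 0.694 without B6, so it too had to differ and is described without a test. Its level was higher in B6 by 5.80 (SE 0.261), 4.51 (SE 0.235) and 6.12 (SE 0.191) on the log2 scale. In PWK it held 5 to 29 counts in the NAcc, against 297 to 490 in B6, so B6 and PWK, which overlapped there for Rec8, did not overlap for Pttg1.

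**Figure D3:**
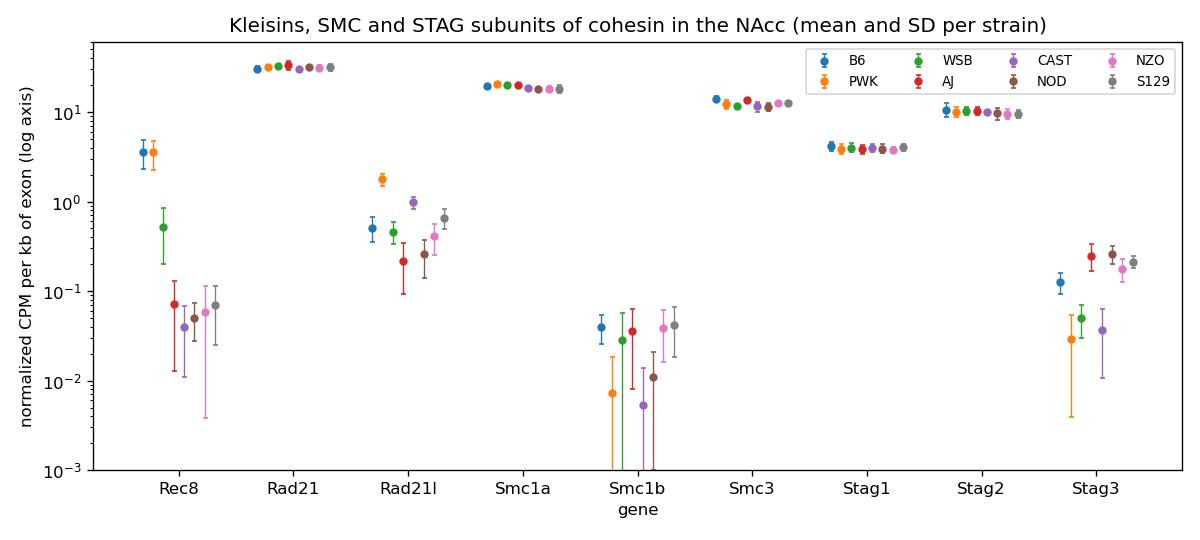
Mean level in the NAcc, as normalized CPM per kilobase of exon (vertical axis, log scale), of the kleisins, SMC and STAG subunits of cohesin (horizontal axis), with 1 point per strain and the SD over its mice as a bar; bars that run below 0.001 are cut by the axis. The somatic subunits lie in narrow bands, and Rec8, Rad21l and Stag3 spread over strains in different orders. Smc1b rests on few counts, and its order is not resolved.

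Of 50 listed meiosis genes, 48 were found in the count table and 17 passed the filter. The strain F test was passed by 16, 16 and 15 of the 17 in the CeA, NAcc and PrL (all genes 80.8%, 76% and 84.1%). In B6 against the other 7 strains, 4 were higher and 2 lower in the CeA, 5 and 0 in the NAcc (9 at an unadjusted p under 0.05, and 4 called by edgeR, in either direction) and 4 and 3 in the PrL. The shares over all genes were 22.4% and 18.7%, 19.6% and 16.7%, and 19.2% and 19.5%. Against the 6 low preference strains, which leave out PWK, the count lower in the PrL was 1 in place of 3. The median log2 difference of the 17 genes was 0.17, 0.12 and 0.04. Of the 17, 1 passed the filter only through B6 (Tex15, mean raw CPM 0.990 without B6) and 1 only through PWK (Terb1), so these counts and medians too are descriptions. In PWK against the 6 low preference strains, 3 were higher and 6 lower in each region (all genes 20% and 19%, 20.3% and 19.1%, and 24.4% and 23.6%).

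Among the genes called higher in B6 in all 3 regions were Ddx4, the germ cell RNA helicase known as vasa, by 1.16 to 1.62 on the log2 scale, and Mlh3, a gene of meiotic crossing over, by 0.26 to 0.35. The other 7 strains include PWK. Against the 6 low preference strains Ddx4 was higher in B6 by 0.96 to 1.47 and called in all 3 regions, whereas Mlh3 differed by 0.11 in the CeA (limma-voom adjusted p = 0.0129), 0.18 in the NAcc (adjusted p = 0.144) and 0.08 in the PrL (adjusted p = 0.208), with a call in the CeA alone. Both were lower in PWK than in the 6 low preference strains in every region, Mlh3 by -1.28 to -1.18. Named after its values were seen, Terb1, which helps tether meiotic telomeres to the nuclear envelope, was higher in PWK by 1.80 to 2.01 in the 3 regions. It passed the filter only through PWK (mean raw CPM of 1.34, and 0.992 without PWK), so this difference is a description. In B6, its differences from the other 7 strains were -0.64, -0.28 and -0.42. Those 7 strains include PWK, and against the 6 low preference strains they were -0.39, 0.01 and -0.14. Hfm1, a meiotic DNA helicase, was higher in PWK in the 3 regions and in B6 in the CeA and PrL.

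The genes on either side of Rec8 showed no difference of its size. The 10 genes before and 10 after it were taken in the gene order of RefSeq (GRCm38.p6), and 15 of the 20 were in the log2 table. In B6 against the other 7 strains, 1 was higher and 6 lower in the CeA, 1 and 4 in the NAcc and 3 and 2 in the PrL. All genes gave 22.4% and 18.7%, 19.6% and 16.7%, and 19.2% and 19.5% for the same contrast. The largest absolute log2 difference was 0.74, for Cpne6 in the CeA, where B6 was the lower. In PWK against the 6 low preference strains, 0 of 15 were called in the CeA by limma-voom (1 at an unadjusted p under 0.05, and 0 by edgeR and by DESeq2), 1 in the NAcc and 3 in the PrL, beside 20% of all genes higher and 19% lower in the CeA, 20.3% and 19.1% in the NAcc and 24.4% and 23.6% in the PrL. The largest absolute difference in PWK was 0.26, for Psme1 in the PrL. The strain F test was passed by 8, 8 and 11 of the 15, beside 80.8%, 76% and 84.1% of all genes.

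Irf9, a subunit of the interferon-induced factor ISGF3, is the nearest tested gene before Rec8, and Ipo4, an importin, the nearest after it. Irf9 held 165 to 221 counts in the NAcc of B6, 152 to 293 in PWK and 128 to 241 in CAST, ranges that overlapped. It was higher in B6 in the CeA, by 0.31 (SE 0.095, limma-voom adjusted p = 0.00805), and not called in the other regions or in PWK. Ipo4 was lower in B6 in the CeA, by -0.14 (SE 0.050, limma-voom adjusted p = 0.0231), and was called neither in B6 in the other regions nor in PWK. Nedd8, a ubiquitin-like modifier, was the neighbour called with the same sign in all 3 regions, lower in B6 by -0.23 to -0.12. The strand setting of the counts is not given in the sources used here, so the share of Rec8 counts that could come from overlapping transcripts was not tested.

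**Figure D4:**
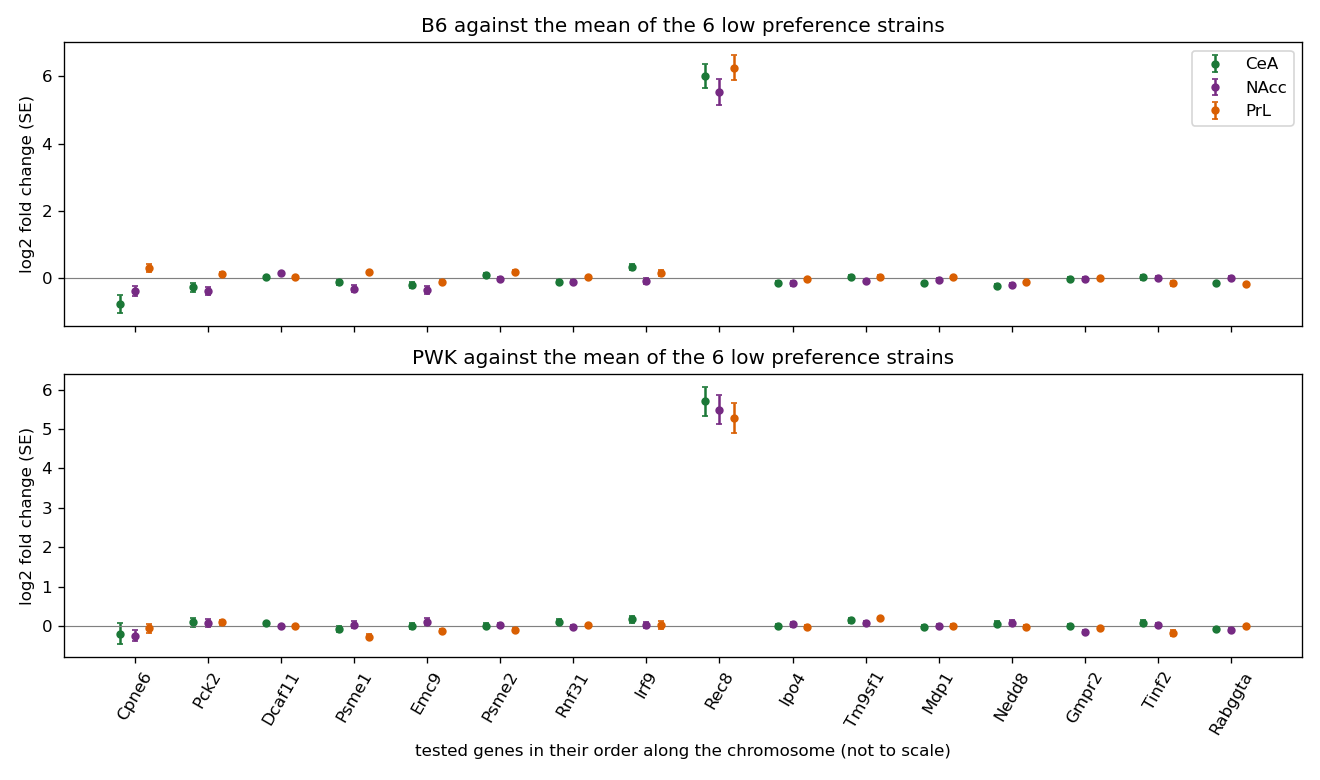
Log2 fold change with its SE (vertical axis) of Rec8 and its 15 tested neighbours in chromosomal order (horizontal axis, not to scale), for B6 and PWK each against the averaged 6 low preference strains, with 1 color per region. Rec8 lies between 5.27 and 6.25 in both panels, and the neighbours between -0.76 and 0.34.

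Likeness of pattern was measured as Pearson's r with Rec8 over the 24 strain-by-region means of log2 CPM (prior count 2), among 14784 genes. The means share strains and mice, and the correlations are descriptions. The 5 highest were the noncoding transcript 2610507I01Rik (r = 0.945), the mitochondrial ribosomal gene Mrpl55 (r = 0.910), the unconventional myosin gene Myo7a (r = 0.909), the exon junction complex gene Rbm8a (r = 0.903) and the antisense transcript Prdm16os (r = 0.866). The 3 lowest were Gm7224 (r = -0.946), Rnps1-ps (r = -0.924) and Rps7-ps3 (r = -0.918), which were low in B6 and PWK and high in the other 6 strains. Rnps1-ps and Rps7-ps3 carry pseudogene names, and their counts may be shared with near-identical copies. With Spearman's rank correlation, 1 of the 5 highest genes was kept. In the NAcc, 2610507I01Rik had 6.83 ± 0.992 CPM in B6 (SD, n = 5), 6.33 ± 0.750 in PWK and 0.759 ± 0.256 in WSB (n = 6 each), so that WSB was near the other strains, which had means of 0.429 to 0.778. Myo7a had 25.4 ± 1.39 CPM in B6, 30.9 ± 4.23 in PWK and 3.11 ± 3.29 in WSB.

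**Figure D5:**
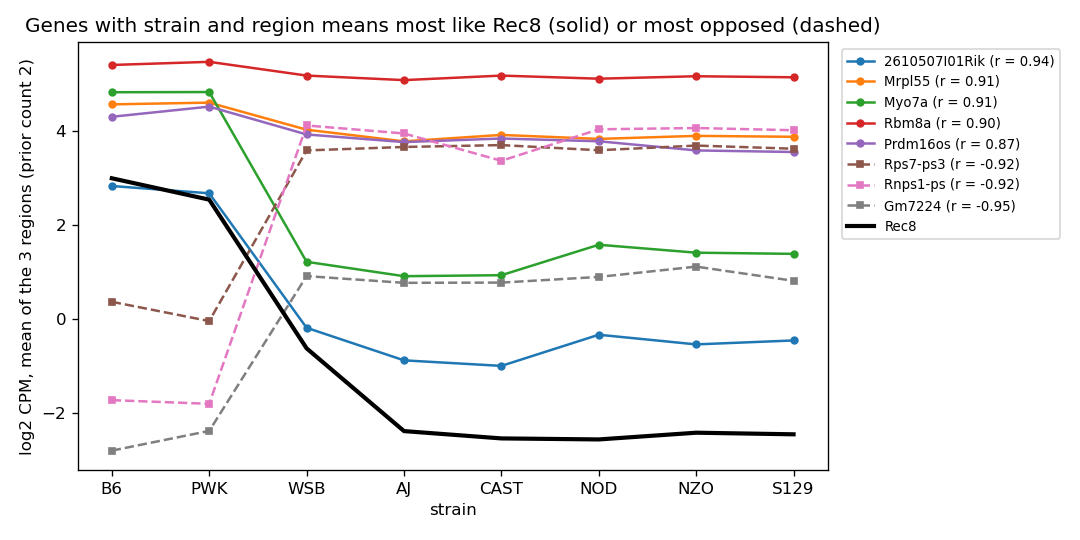
Mean log2 CPM over the 3 regions (vertical axis) by strain (horizontal axis) of Rec8 (thick black line), of the 5 genes with the highest Pearson's r (solid) and of the 3 with the lowest (dashed). All lines change level between PWK and WSB. Rec8 shows a further drop from WSB to the other 5 strains, and some solid lines, such as Mrpl55 and Prdm16os, show smaller ones.

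After strain by region, sex and tray were removed, the genes that varied most with Rec8 over the 143 libraries were Htr7 (r = 0.472), Adarb2 (r = 0.464), Rtl5 (r = 0.451), Gjb6 (r = 0.451) and Lgals8 (r = 0.446). Most of these libraries lie near the floor for Rec8. Over the 35 B6 and PWK libraries alone, a set chosen after the levels were seen, they were Haus4 (r = 0.780), Vash2 (r = 0.769), Patj (r = 0.754), Csk (r = 0.746) and Rbm4b (r = 0.730). No gene was in both lists of 5. In these 35 libraries the summed astrocyte markers had r = 0.552 with Rec8, and the 10 other marker lists had r between -0.21 and 0.30.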

How the data were processed

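RNA-seq of 144 samples (48 mice, 3 regions) was analysed from 2 deposited tables. Stranded mRNA libraries were sequenced in pairs, and the authors ran STAR 2.7.3a on GRCm39 and deposited whole-number read counts for 55414 genes in 240 columns, since trays 2 and 3 were run again. The authors also deposited log2 CPM of 14785 genes in 143 libraries (TMM scaling), which the counts reproduced within 5e-06; the same genes and libraries were used here. A deposited column that tells in how many samples a gene had reads was not used.

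Each region was fitted with limma-voom (limma 3.58.1, R 4.3.3) on strain, sex and tray, as in the study's methods, with Benjamini-Hochberg adjustment over all genes and an FDR of 0.05. edgeR 4.0.16 and DESeq2 1.42.0 were alternatives. Scripts were tested on simulated data. Exon lengths came from GENCODE M21 (GRCm38) and gene order from RefSeq. Rec8 and the gene lists were chosen with earlier results of these data known. Named were the kleisins, the nearest tested neighbours, listed genes called with 1 sign in B6 in all 3 regions, and the genes most like Rec8; other names were chosen after their values were seen, and 1 gene that the rule names is not reported here. With 6 mice per strain, p-values measure the spread between mice of 1 inbred genome.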

Additional observations from a re-analysis of the deposited data

Results flagged for a closer look

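Among 24 groups of 5 or 6 libraries, 1 held a library far from the others, where chance gives about 1 in 20. In the NAcc of B6, the female mouse 25 had a Rec8 level of 4.12 on the deposited log2 scale (424 counts, 17.4 CPM), and the next highest B6 library was at 3.23. That mouse also had the highest B6 level in the PrL (9.17 CPM), and its CeA level (8.26 CPM) was the second lowest of B6. Its NAcc library had the lowest striatal marker sum of B6 (4454 CPM, others 6367 to 8020) and its PrL library the lowest pallial sum (1771 CPM, others 2236 to 3043). The part of these marker levels in its Rec8 values was not tested.

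The B6 NAcc library that the authors left out, from female mouse 1, held 226 Rec8 counts in its first run, or 15.5 CPM. Its second run held 415 counts, or 14.5 CPM. Both values are far above the low preference strains and above 4 of the 5 other B6 NAcc libraries (8.30 to 9.33 CPM), with mouse 25 higher (17.4 CPM).

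The sex difference of Rec8 over the mouse means differed between PWK and B6 by 0.93 on the log2 scale. Males were lower than females in B6 (-0.43) and higher in PWK (0.50). The exact permutation of sex within each strain gave p = 0.04 over 400 arrangements, and p = 0.12 after Benjamini-Hochberg adjustment over the 3 sex comparisons of the mouse means. Without PWK males 24 and 40 and B6 female 25, whose libraries stood apart in neuron markers, the difference was 0.81 (-0.30 in B6 and 0.51 in PWK), with no test. Mouse 8 was then the only PWK male and PWK female 48 was kept, so this value cannot show whether the difference persists. The comparison of PWK with B6 was chosen after the levels were seen, and PWK males were above all PWK females only in the NAcc.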

How the results depend on the processing

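The size of Rec8 in B6 against the other 7 strains stayed between 4.45 and 6.03 on the log2 scale in every region and under every alternative that gave a value, including leaving out each B6 NAcc mouse (4.45 to 4.87). With a minimum mean CPM of 5, Rec8 was not in the table and gave no value.

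The sex difference of Rec8 passed the threshold under no alternative, and DESeq2 gave no adjusted p in the PrL. In the CeA, where it was near 0, its sign turned with RLE factors (0.00139), with runs summed (0.138), without the tray term (0.000483) and with B6 and PWK alone (0.078, added after the levels were seen). Over all regions it turned with the excluded library added (-0.00034) and was largest with runs summed (0.142). The mouse as a replicate block gave 0.0349, with a consensus correlation of 0.0476 between libraries of 1 mouse, and changed no call. In the PrL it ranged from -0.60 to -0.28, the last without the tray term, and in the NAcc from 0.0586 with edgeR to 0.307 with B6 and PWK alone. Leaving out B6 NAcc mice gave 0.16 to 0.44 (0.44 without mouse 25).

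Counts of called meiosis genes followed the number of genes kept. With no filter the strain F test called 33, 34 and 31 in the CeA, NAcc and PrL and the B6 contrast 14, 11 and 13. With only genes over a mean of 5 CPM these were 5, 5 and 5, and 2, 3 and 3. With runs summed the B6 contrast called 8 cohesin genes in the CeA and 9 meiosis genes in the NAcc. Without the tray term it called 3 cohesin genes and 3 neighbours in the PrL. For neighbours in the NAcc, the strain F test called 5 with the excluded library added and 5 to 9 when B6 mice were left out (5 without mouse 17), and the B6 contrast 3 to 7 (3 without mouse 17 or mouse 33). In place of the B6 contrast, PWK against the 6 low preference strains called 3 cohesin genes and 0 neighbours in the CeA, 9 meiosis genes and 1 neighbour in the NAcc and 8 cohesin genes and 3 neighbours in the PrL, and B6 against the same 6 strains called 4 meiosis genes in the PrL (added after the levels were seen). The causes of the other changes were not tested. Depth limits the values of AJ, CAST, NOD, NZO and S129, where most libraries held 3 Rec8 counts or fewer.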
